A study of Mus musculus with 12 samples.

Results

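The 8 genes described here write or erase DNA methylation, and they were followed in the mouse testis: Dnmt1, Dnmt3a, Dnmt3b, Dnmt3l, Uhrf1, Tet1, Tet2 and Tet3. They were chosen by name from what their proteins do, and all 8 are among the 37675 genes listed in each library. Whole testes were taken from C57BL/6NHsd mice, an inbred laboratory strain, at postnatal day (PND) 7, 14, 17, 21 and 28, with 2 mice at each age. After removal of ribosomal RNA, libraries were run on the SOLiD 4, and each PND 7 mouse was sequenced under 2 barcodes, which were merged here, so that 12 libraries gave 10 mice. The ages span the first wave of spermatogenesis, in which spermatogonia give rise to spermatocytes and then to spermatids, and the study compared them in chronological order. Each sample is a mixture of germ cells and somatic cells, so that fewer cells of a type and less RNA per cell cannot be told apart.

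DNA methylation in mammals sits mostly on the cytosine of a CpG. DNMT1 copies it onto the new strand after replication and is brought there by UHRF1, which binds hemimethylated CpG, whereas DNMT3A and DNMT3B place methyl groups on unmethylated sites. DNMT3L has no catalytic activity of its own and stimulates DNMT3A and DNMT3B. The TET enzymes oxidize 5-methylcytosine to 5-hydroxymethylcytosine and further, after which base excision repair or replication can restore plain cytosine. In the male germ line most methylation is laid down in prospermatogonia before birth and is then maintained through the divisions of spermatogonia.

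The total count on genes was 3994026 to 13559548 per mouse with a median of 7103531, and 16860 genes had enough counts to be tested. Levels are given as CPM (the count divided by library size, after TMM scaling), which follow a gene between ages, or as the deposited RPKM, which also divides by the exon length and allows levels of different genes to be compared. That length takes in all annotated exons of a gene, which 1 transcript need not hold, so such a comparison depends on the annotation. Differentially expressed (DE) genes were those at least 2-fold apart with an adjusted p (Benjamini-Hochberg) below 0.05 in edgeR's quasi-likelihood test, which pools the spread of all 10 mice. Permuting 2 mice against 2 could not bring any one gene to 0.05. PND 14 mouse 1 stood apart from its partner in transcripts of spermatids: Prm1, a protamine that packs sperm DNA, had 479 counts in it and 8 in mouse 2, and the 6 spermatid markers summed to 188 and 13.3 CPM. The PND 7/14 results named for the Tet genes, Dnmt3b and the pathway genes are therefore also given without that mouse. The share of counts on mitochondrial genes was 37.3% and 36.7% at PND 7 and 15.1% and 15.6% at PND 28.

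Between PND 7 and PND 28, 7 of the 8 genes were DE. Dnmt1, Dnmt3a, Dnmt3b, Tet1, Tet2 and Tet3 were lower at PND 28, by 2.46-fold for Dnmt1 up to 14.5-fold for Tet3. Dnmt3l was higher. It had enough counts to be tested only through the PND 28 mice, so its call is not independent of the filter on low counts. Uhrf1, the partner of DNMT1, had 1.87-fold the level of PND 7 at PND 28 and was under the 2-fold threshold. Of all genes tested, 55.6% were DE in the same comparison, 23.4% lower and 32.2% higher at PND 28, so that a call as such was common and 6 of 8 lower compares with 23.4%. The median log2 fold change of the 8 genes was -2.12 beside 0.10 for all genes tested. Among all 5 ages together, 7 of the 8 genes were DE beside 54.6% of all genes. The 7 again include Dnmt3l, with the same limit.

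**Figure D1:**
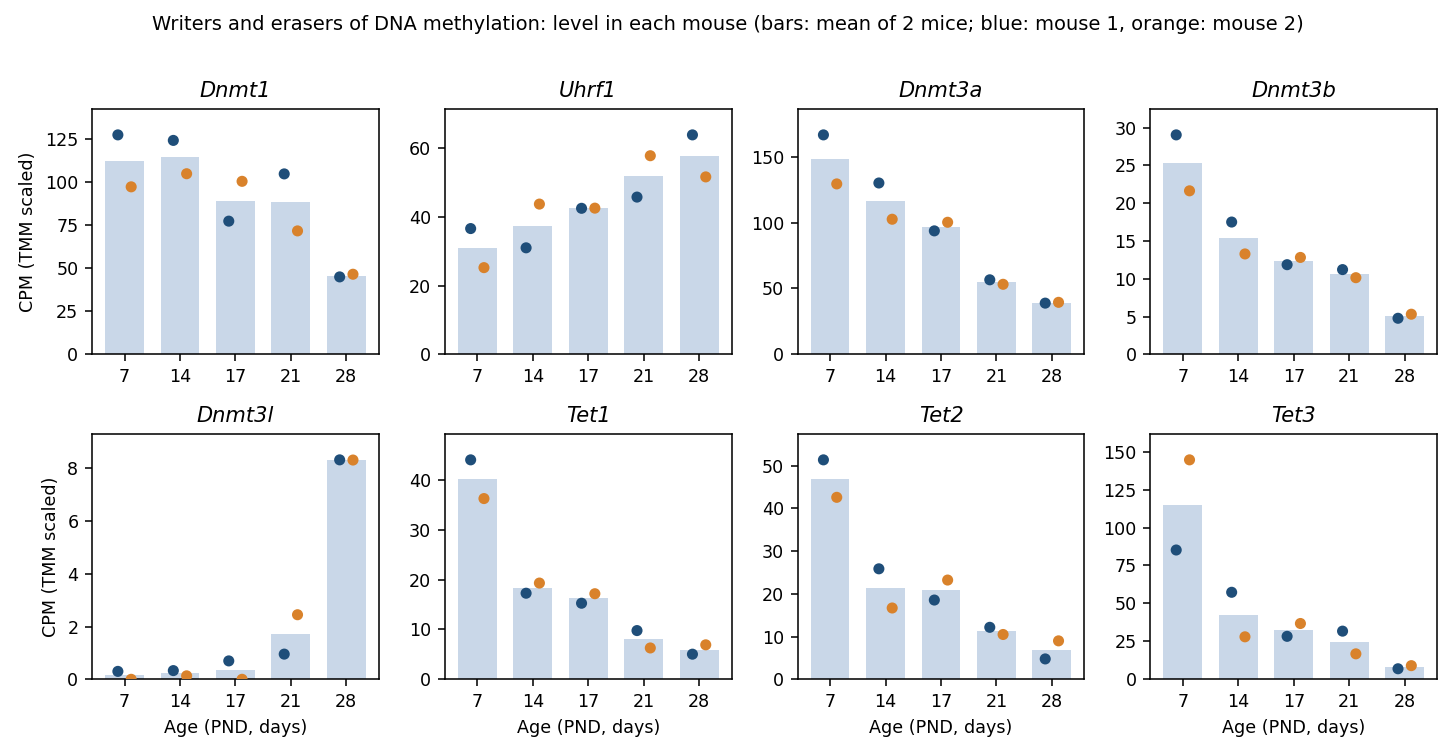
Level of the 8 genes in each of the 10 mice, in TMM scaled CPM on linear axes that start at 0, by age in days, with points for mice and bars for the mean of the 2 mice. Dnmt3l stood at 8.32 and 8.31 CPM in the PND 28 mice and at 2.45 CPM or less in all younger mice, Uhrf1 had its highest mean at PND 28, and the other 6 genes had their lowest means there.

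The promoters of the genes differ in how many CpG, the target of the enzymes themselves, they hold. The RefSeq table of promoters for GRCm38.p6 holds windows of 300 bases, 250 before and 50 after a start site, and lists 15 such windows for the 8 genes and 32851 in all, with a median of 7 CpG. The 3 windows of Dnmt3l hold 6, 4 and 3 CpG, numbered from the 5′ end of the gene. Every other gene has at least 1 window with 17 CpG or more, up to 57 for Tet2. Shown here are the 250 bases before the start sites for Dnmt3l, the gene called higher at PND 28, and for Tet2. Dnmt1 and Uhrf1 are shown too, as partners whose CpG-richest windows both hold 33 CpG. Of these partners, Dnmt1 was called lower at PND 28 than at PND 7 and Uhrf1 was not called. Every CpG is in capitals, and each sequence is read 5′ to 3′ along the gene's strand.
Dnmt3l start site 1 (chr10:78042037-78042286, + strand): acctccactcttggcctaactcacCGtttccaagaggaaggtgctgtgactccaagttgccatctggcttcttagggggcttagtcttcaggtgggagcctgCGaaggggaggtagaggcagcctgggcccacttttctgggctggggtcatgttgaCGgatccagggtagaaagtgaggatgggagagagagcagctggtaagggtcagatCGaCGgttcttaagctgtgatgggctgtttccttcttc
Dnmt3l start site 2 (chr10:78049592-78049841, + strand): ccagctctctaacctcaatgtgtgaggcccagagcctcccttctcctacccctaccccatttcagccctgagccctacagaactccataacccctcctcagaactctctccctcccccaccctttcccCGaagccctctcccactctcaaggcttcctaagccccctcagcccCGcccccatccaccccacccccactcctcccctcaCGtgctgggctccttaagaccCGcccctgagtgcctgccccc
Dnmt3l start site 3 (chr10:78055085-78055334, + strand): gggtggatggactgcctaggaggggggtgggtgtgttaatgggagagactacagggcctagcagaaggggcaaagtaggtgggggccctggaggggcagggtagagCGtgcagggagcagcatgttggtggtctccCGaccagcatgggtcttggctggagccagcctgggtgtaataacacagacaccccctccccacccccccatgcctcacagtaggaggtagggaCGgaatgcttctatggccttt
Dnmt1 start site 3 (chr9:20952624-20952873, - strand): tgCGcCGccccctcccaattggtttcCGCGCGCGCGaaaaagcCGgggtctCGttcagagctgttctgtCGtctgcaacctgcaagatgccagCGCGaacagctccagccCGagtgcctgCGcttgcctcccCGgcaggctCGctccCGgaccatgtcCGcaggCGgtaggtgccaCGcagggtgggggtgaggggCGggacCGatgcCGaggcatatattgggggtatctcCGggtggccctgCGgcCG
Uhrf1 start site 2 (chr17:56304063-56304312, + strand): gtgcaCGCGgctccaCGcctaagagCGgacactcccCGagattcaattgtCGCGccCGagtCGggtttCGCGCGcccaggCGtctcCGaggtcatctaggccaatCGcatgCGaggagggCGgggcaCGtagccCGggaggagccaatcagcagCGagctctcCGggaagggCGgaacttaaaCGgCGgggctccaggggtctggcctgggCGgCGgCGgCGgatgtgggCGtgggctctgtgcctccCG
Tet2 start site 1 (chr3:133544391-133544640, - strand): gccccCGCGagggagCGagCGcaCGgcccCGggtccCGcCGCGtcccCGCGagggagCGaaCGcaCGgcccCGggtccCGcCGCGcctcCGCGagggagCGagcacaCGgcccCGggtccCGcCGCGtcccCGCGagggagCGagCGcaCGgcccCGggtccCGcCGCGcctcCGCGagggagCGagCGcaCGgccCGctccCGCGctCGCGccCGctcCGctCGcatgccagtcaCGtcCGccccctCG

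These upstream stretches hold 5, 4 and 3 CpG for Dnmt3l, 26 for Dnmt1, 30 for Uhrf1 and 51 for Tet2. Those of Dnmt1 and Uhrf1 and the last 2 of Dnmt3l lie downstream of another listed start site of the same gene. They are upstream only of their own site and can be transcribed from the other. The letters of 5 motifs were searched in the 15 windows on both strands, and none of the search strings contains another. The GC box GGGCGG, itself holding a CpG, was in 12 of the 15 windows, beside 35.7% of all promoter windows. All 8 genes held it in at least 1 window, but a gene with 2 or 3 windows has more chances. Windows 1 and 2 of Dnmt3a, both with the GC box, overlap each other. The E2F-type letters TTTGGCGC or TTTCCCGC were in 1 window, that of Dnmt1 start site 3, beside 1.56% of all promoters. CCAAT was in 5 windows of 3 genes, Dnmt1, Uhrf1 and Tet3, beside 37.4% of promoters. TATAAA, held by 13.6% of promoters, and the CRE letters TGACGTCA, held by 1.79%, were in none of the 15. Counts per gene do not tell which start site a transcript used.

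Dnmt1, the maintenance methyltransferase, lies on chromosome 9 (mm9, chr9:20711650-20757317, - strand) with 39 annotated exons. It had 127 and 97.0 CPM in the PND 7 mice, 124 and 105 at PND 14, 77.1 and 100.2 at PND 17, 105 and 71.5 at PND 21, and 44.9 and 46.4 at PND 28. The mice of the first 4 ages overlapped, and both PND 28 mice lay below every other mouse. From PND 7 to PND 28 the mean went from 112 ± 21.3 to 45.6 ± 1.09 CPM (SD, n = 2 mice each), a log2 fold change of -1.30 (SE 0.26, edgeR adjusted p = 0.00127). The step from PND 21 to PND 28 was -0.95 on the log2 scale (SE 0.26, edgeR adjusted p = 0.0474), just short of 2-fold. Earlier steps did not pass, with log2 fold changes of 0.03, -0.37 and -0.01. The test over all 5 ages (edgeR adjusted p = 0.00815) was lost without either PND 28 mouse, with adjusted p of 0.0765 without mouse 1 and 0.0646 without mouse 2.

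Uhrf1, whose protein reads hemimethylated CpG and recruits DNMT1, lies on chromosome 17 (chr17:56442744-56462909, + strand, 27 exons). Its levels were 36.6 and 25.3 CPM at PND 7, 31.0 and 43.8 at PND 14, 42.5 and 42.6 at PND 17, 45.8 and 57.9 at PND 21, and 63.9 and 51.7 at PND 28. The means ordered with age, but only PND 17 and PND 21 were neighbours whose mice did not overlap, and no step between neighbouring ages passed the test. Between PND 7 and PND 28 the log2 fold change was 0.90 (SE 0.27, edgeR adjusted p = 0.0139), under the 2-fold threshold. With RLE scaling it was 1.07 and with DESeq2 1.06, both then called, and with library totals it was 0.58 (edgeR adjusted p = 0.062). Without PND 7 mouse 1 it was 1.21 and without PND 28 mouse 2 it was 1.06, both called, while without PND 7 mouse 2 it was 0.66. The test over all 5 ages had an edgeR adjusted p of 0.0721.

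The level of Uhrf1 relative to Dnmt1 does not depend on the scaling of a library. On the per-length scale, the RPKM of Uhrf1 was 0.353 and 0.321 of that of Dnmt1 in the PND 7 mice, 0.31 and 0.517 at PND 14, 0.682 and 0.525 at PND 17, 0.542 and 1.0 at PND 21, and 1.76 and 1.38 at PND 28. Uhrf1 thus stood above Dnmt1 per length in both PND 28 mice, next to level with it in PND 21 mouse 2 (12.64 and 12.63 RPKM), and below it in the other younger mice. The log2 ratio of the CPM values (with 0.5 CPM added) averaged -1.85 at PND 7 and 0.33 at PND 28, and the ratio differed among the ages in an exact permutation test over the 945 ways to pair the 10 mice (p = 0.0201, adjusted over 6 such ratios 0.0402, two-sided). When each mouse was left out in turn, the difference stayed between 2.01 and 2.36 on the log2 scale, but the adjusted exact p lay between 0.0254 and 0.169, above 0.05 in all but 2 of 10 cases. It was 0.0508 without PND 14 mouse 1. The 6 ratios were chosen after the levels had been seen, and 0.00106 is the smallest p that this permutation can give.

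Dnmt3a, a de novo methyltransferase, lies on chromosome 12 (chr12:3806007-3914443, + strand) with 60 annotated exons that span 16642 bases. It had 167 and 129 CPM at PND 7, 130.0 and 102 at PND 14, 93.7 and 100.2 at PND 17, 56.6 and 53.1 at PND 21, and 38.9 and 39.5 at PND 28. From PND 14 onward each age lay wholly below the one before, while PND 7 and PND 14 overlapped. The mean went from 148 ± 26.3 to 39.2 ± 0.434 CPM (SD, n = 2 mice each) between PND 7 and PND 28, a log2 fold change of -1.92 (SE 0.22, edgeR adjusted p = 3.29e-05). Its widest step was PND 17/21, with -0.82 (SE 0.22, edgeR adjusted p = 0.0349), which is under 2-fold. An antisense gene, Gm10485, overlaps 0.8% of its exon bases and had 0 counts in every mouse.

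Dnmt3b, the other catalytic de novo enzyme, lies on chromosome 2 (chr2:153475186-153513466, + strand, 34 exons). Its levels were 29.0 and 21.6 CPM at PND 7, 17.5 and 13.3 at PND 14, 11.9 and 12.8 at PND 17, 11.2 and 10.1 at PND 21, and 4.77 and 5.31 at PND 28. It was the only one of the 8 genes in which every pair of neighbouring ages was free of overlap. Between PND 7 and PND 28 it fell by 2.33 on the log2 scale (SE 0.33, edgeR adjusted p = 0.00012). The steps PND 7/14 at -0.72 (edgeR adjusted p = 0.104, and -0.97 with adjusted p = 0.108 without PND 14 mouse 1) and PND 21/28 at -1.08 (edgeR adjusted p = 0.0733) did not pass. A near copy, listed as Gm14490 and known as Dnmt3c, shares 334 of the 3934 words of 50 bases in the Dnmt3b exons (8.49%), so that a read within one of them has no unique place, and only unique reads were assigned to genes. Gm14490 itself had 5 to 41 counts per mouse.

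The de novo enzymes kept a narrow ratio to each other. The log2 ratio of Dnmt3a to Dnmt3b in CPM averaged 2.53, 2.88, 2.92, 2.31 and 2.84 from the youngest to the oldest age, with the mice of an age at most 0.12 apart. These small shifts were larger than the spread between mice (exact permutation p = 0.00423, adjusted 0.0127). Counting error was not set beside the shifts, and Dnmt3b had only 47 and 58 counts at PND 21 and 35 and 23 at PND 28. When each mouse was left out in turn, the difference of PND 28 from PND 7 stayed between 0.257 and 0.375. Against Dnmt1, the log2 ratio of Dnmt3a averaged 0.40, 0.02, 0.14, -0.65 and -0.22 in the same order (exact permutation p = 0.00212, adjusted 0.0127). That call was lost in 5 of 10 cases when 1 mouse was left out, among them PND 14 mouse 1 (adjusted exact p = 0.0508). On the per-length scale Dnmt1 supplied 60.8% and 60.7% of the summed RPKM of the 3 catalytic enzymes at PND 7 and 72.2% and 72.1% at PND 28.

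Dnmt3l, the catalytically inactive partner, lies on chromosome 10 (chr10:77504692-77526367, + strand, 25 exons) and was the one gene of the 8 called higher at PND 28. Its raw counts were 3 and 0 in the PND 7 mice, 3 and 1 at PND 14, 10 and 0 at PND 17, 4 and 14 at PND 21, and 61 and 36 at PND 28. In CPM these were 0.30 and 0 at PND 7, 0.33 and 0.13 at PND 14, 0.70 and 0 at PND 17, 0.95 and 2.45 at PND 21, and 8.32 and 8.31 at PND 28. Both PND 28 mice lay far above all others, and both PND 21 mice lay above all of the 3 younger ages. A count of 0 allows up to 3 counts, which is 0.403 CPM in PND 7 mouse 2 and 0.726 CPM in PND 17 mouse 2, so that expression in these mice was not detectable at this depth, which does not show absence.

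The 97 counts of the PND 28 mice against the 3 of the PND 7 mice are a 48.3-fold ratio with a 95% exact interval of 16.0 to 238. Against PND 14 the ratio was 34.7 (13.1 to 130.0), against PND 17 it was 15.4 (8.0 to 33.0) and against PND 21 it was 4.58 (2.75 to 8.05). These intervals cover counting error only, not the spread between mice. In the edgeR fit the log2 fold change was 5.51 for PND 7/28 (SE 1.11, adjusted p = 0.00137) and 2.24 for PND 21/28 (SE 0.89, adjusted p = 0.157). That of PND 7/28 moved to 4.71 without PND 7 mouse 2. Without PND 7 mouse 1 it was 8.89, but the PND 7 mouse that remained had 0 counts. The value 8.89 therefore does not measure the size of the change. The gene passed the filter on low counts only through the PND 28 mice, so its call is not independent of the filter. At PND 28, 5 of its 25 exons in mouse 1 and 3 in mouse 2 had more than 10 reads, and none did at PND 14, 17 or 21. The antisense neighbour Aire overlaps 2.2% of its exon bases and had at most 3 counts in any mouse.

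The erasers Tet1, Tet2 and Tet3, which encode 5-methylcytosine dioxygenases, were the only genes of the 8 that were DE between neighbouring ages. In PND 7/14 all 3 were lower at PND 14, beside 18.9% of all genes called and 5.43% called lower. None of the 3 was called with limma on the RPKM values. No gene of the 8 was DE in PND 14/17, where no gene at all was called by edgeR (0%) and 769 genes had an unadjusted p under 0.05, none of them among the 8. DESeq2 called 1 gene there and limma on log2(RPKM + 1) called 7, and edgeR called 357 genes with no filter on low counts and 175 without PND 14 mouse 2. In PND 17/21 (10.3% of all genes called) and PND 21/28 (7.66%) none of the 8 was called by edgeR, while 3 and 4 of them had an unadjusted p under 0.05, beside 4758 and 4021 of the 16860 genes tested, and DESeq2 called 0 and 1. Neighbouring comparisons share the mice of the age between them.

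**Figure D2:**
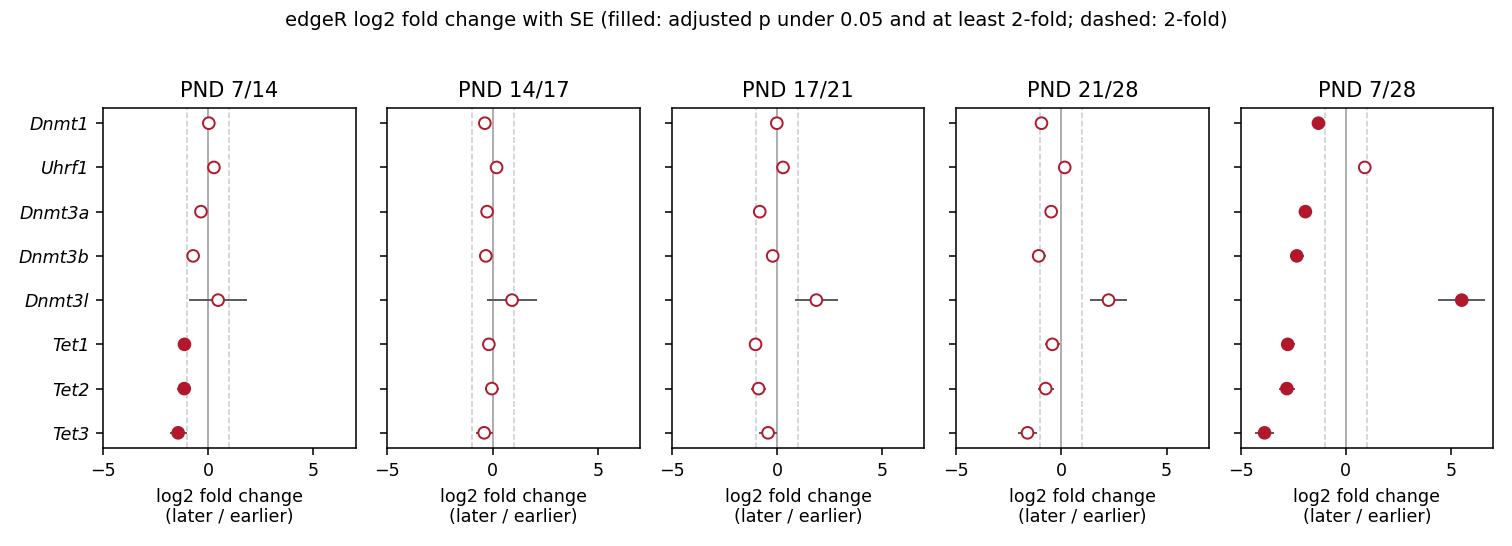
Log2 fold change of the later over the earlier age for each of the 8 genes in 5 comparisons, from the edgeR fit, with the SE as bars, filled points for DE genes and dashed lines at 2-fold. In PND 7/14 the points of Tet1, Tet2 and Tet3 are filled, in the next 3 comparisons none is, and in PND 7/28 all but that of Uhrf1 are.

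Tet1 lies on chromosome 10 (chr10:62267318-62361866, - strand, 26 exons). It had 44.1 and 36.3 CPM at PND 7, 17.3 and 19.3 at PND 14, 15.3 and 17.2 at PND 17, 9.78 and 6.29 at PND 21, and 5.04 and 6.92 at PND 28. Each age lay below the one before up to PND 21, after which PND 21 and PND 28 overlapped. It fell by 1.13 on the log2 scale in PND 7/14 (SE 0.30, edgeR adjusted p = 0.0215) and by 2.76 in PND 7/28 (SE 0.33, edgeR adjusted p = 3.88e-05). Without PND 14 mouse 1 the log2 fold change of PND 7/14 was -1.09 and not called (edgeR adjusted p = 0.0791), and the call was also lost without PND 14 mouse 2 (-1.23, adjusted p = 0.0686) and without PND 7 mouse 1 (-0.96, adjusted p = 0.0627). The step PND 17/21 was 2.03-fold and had an edgeR adjusted p of 0.0645.

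Tet2, on chromosome 3 (chr3:133126643-133207354, - strand, 15 exons), had 51.4 and 42.6 CPM at PND 7, 25.9 and 16.7 at PND 14, 18.6 and 23.2 at PND 17, 12.2 and 10.5 at PND 21, and 4.77 and 9.0 at PND 28. PND 14 and PND 17 overlapped, and every other pair of neighbouring ages was separate. The log2 fold change was -1.14 in PND 7/14 (SE 0.34, edgeR adjusted p = 0.0337) and -2.80 in PND 7/28 (SE 0.37, edgeR adjusted p = 7.98e-05). Without PND 14 mouse 1 the former was -1.52 and still called (edgeR adjusted p = 0.0277). It was not called without PND 14 mouse 2 (-0.88, adjusted p = 0.187), without either PND 7 mouse (adjusted p = 0.0914 and 0.0622) or without either PND 17 mouse (adjusted p = 0.0589 and 0.0593).

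Tet3, on chromosome 6 (chr6:83312367-83391672, - strand, 16 exons), spread widely between the mice of an age, most of all at PND 7, 14 and 21. Its levels were 85.2 and 145 CPM at PND 7, 57.3 and 28.0 at PND 14, 28.3 and 36.8 at PND 17, 31.7 and 16.8 at PND 21, and 6.95 and 9.0 at PND 28. The barcodes of a PND 7 mouse gave similar values, with 8.63 and 7.36 RPKM in mouse 1 and 14.4 and 13.8 RPKM in mouse 2, so that the gap lay between the mice. PND 7 lay above all other ages and PND 28 below them, whereas PND 14, 17 and 21 overlapped. The log2 fold change was -3.86 in PND 7/28 (SE 0.46, edgeR adjusted p = 4.02e-05) and -1.43 in PND 7/14 (SE 0.40, edgeR adjusted p = 0.0291). The latter was -2.07 without PND 14 mouse 1 (edgeR adjusted p = 0.0114), and it was lost without PND 14 mouse 2 (-1.02, adjusted p = 0.166) or PND 7 mouse 2 (-0.99, adjusted p = 0.179). The step PND 21/28, 3.05-fold, had an edgeR adjusted p of 0.053, was called in DESeq2 (adjusted p = 0.0182), and had edgeR adjusted p from 0.0261 to 0.329 when 1 mouse was left out.

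The number of exons with more than 10 reads, which moves with depth and exon length, was small for several of the genes. Of the 16 exons of Tet3, 3 had more than 10 reads in PND 14 mouse 1, where the gene had 521 counts, and 1 to 3 had so many in the mice from PND 14 to PND 28. Tet1 had 2 to 6 such exons of 26, with 6 at 157 counts in PND 14 mouse 1, where Dnmt3b had 8 of 34 at 159 counts. Dnmt1 had 31 of 39 exons over 10 reads in PND 14 mouse 1 and 6 of 39 in PND 28 mouse 2, where it had 201 counts. The exon numbers of PND 7 are not given here because they were deposited per barcode.

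No difference among the ages was found in the ratios of the erasers to each other. The exact permutation p was 0.781 for Tet1 to Tet2, 0.324 for Tet3 to Tet1 and 0.291 for Tet3 to Tet2 (adjusted 0.389 for the last 2), which does not show that the ratios were equal. The log2 ratio of Tet3 to Tet1 was 0.944 and 1.98 at the youngest age and 0.427 and 0.356 at the oldest, and the ages between lay from 0.524 to 1.70. At PND 28 the remaining mean level was 6.94% of that at PND 7 for Tet3, 14.7% for Tet2 and 14.9% for Tet1, beside 19.9% for Dnmt3b, 26.5% for Dnmt3a and 40.7% for Dnmt1.

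Per exon length, the enzymes that write stood above those that erase in every mouse. The RPKM of Dnmt1, Dnmt3a and Dnmt3b summed to 42.1 and 32.9 at PND 7, 41.3 and 31.4 at PND 14, 24.7 and 29.3 at PND 17, 26.9 and 17.5 at PND 21, and 9.94 and 10.5 at PND 28. For Tet1, Tet2 and Tet3 the sums were 17.0 and 21.6 at PND 7, 10.9 and 6.2 at PND 14, 6.12 and 7.44 at PND 17, 5.13 and 2.87 at PND 21, and 1.26 and 1.93 at PND 28. The sum of the writers was 2.48 and 1.52 times that of the erasers in the PND 7 mice, 3.8 and 5.06 times at PND 14 and 7.89 and 5.42 times at PND 28, so that both PND 7 mice lay below all older mice. Among single genes Dnmt1 had the highest mean RPKM of the 8 from PND 7 (22.8 ± 3.98, SD, n = 2) to PND 21 (16.8 ± 5.92). At PND 28 Uhrf1 was highest with 11.5 ± 1.6 RPKM, followed by Dnmt1 with 7.36 ± 0.255 and Dnmt3l with 2.36 ± 0.0283, while Dnmt3l had been lowest at PND 7 with 0.0575 ± 0.0813.

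**Figure D3:**
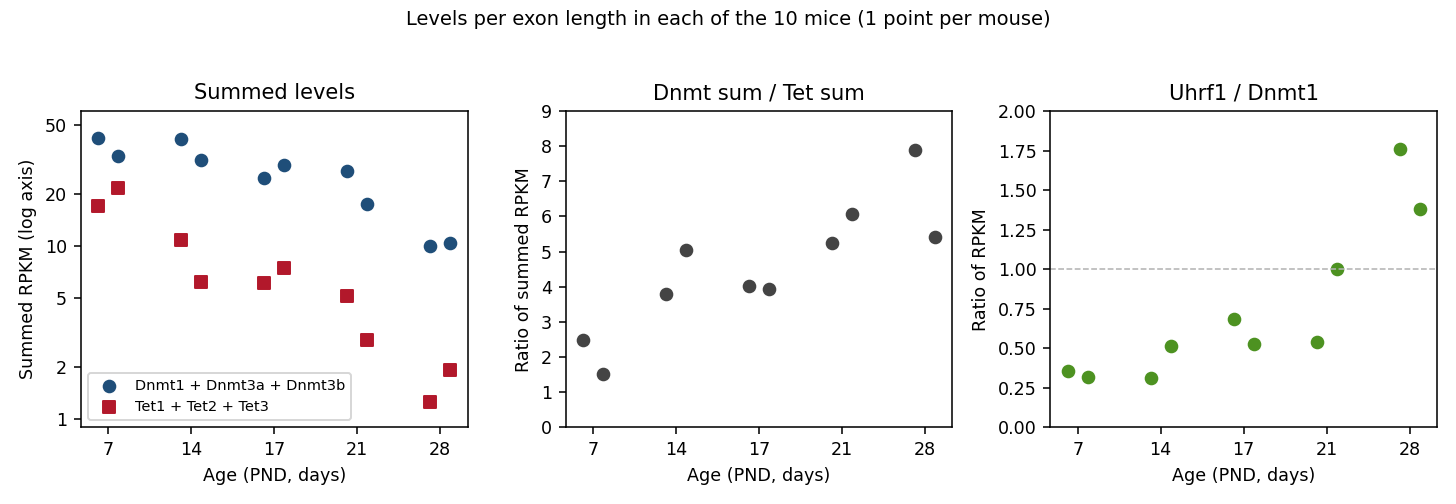
Summed RPKM of the catalytic Dnmt genes and of the Tet genes on a log axis (left), the ratio of the sums (middle) and the RPKM of Uhrf1 over that of Dnmt1 (right), 1 point per mouse by age in days. The ratio of the sums was 2.48 and 1.52 at PND 7 and 3.8 or more in every older mouse, and Uhrf1 over Dnmt1 was 1.76 and 1.38 in the PND 28 mice and 1.0 or less, as rounded, in the younger mice.

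Of 47 genes listed for work with these enzymes, 46 were tested. In PND 7/28, 21 were DE lower and 7 higher at PND 28, again beside 23.4% and 32.2% of all genes. The median log2 fold change of all genes was 0.10, to which the medians of the lists below compare. No set test was run, and the lists were chosen with earlier results known.

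Of the 6 partners of maintenance methylation, 4 were lower at PND 28, none was higher, and the median log2 fold change was -1.26. The 4 were Cdca7 (-1.85) and Hells (-1.17), which form a remodelling complex that opens nucleosomes for methylation, Lig1 (-1.51), the ligase of replicating DNA, and Uhrf2 (-1.34), the homolog of Uhrf1. All had edgeR adjusted p of 0.00149 or less. Pcna, the replication clamp, had 9.81 and 7.66 CPM at PND 7 and 15.4 and 18.7 at PND 28. Its log2 fold change of 0.955 (edgeR adjusted p = 0.0188) was under the 2-fold threshold, so it was not called. It was named after its values were seen.

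Among 12 genes that target or permit de novo methylation, 4 were higher and 4 lower at PND 28. Mael (log2 fold change 4.43, edgeR adjusted p = 6.55e-06) and Tdrd9 (2.53, adjusted p = 0.000564), both of the piRNA pathway that silences transposons, were higher. Piwil4, the nuclear PIWI protein that directs methylation to transposons, went from 5.71 and 9.81 CPM to 0.818 and 0.923 (log2 fold change -3.14, edgeR adjusted p = 0.00112). Ctcfl, a germ cell paralog of the insulator protein CTCF, was also lower (-3.07, edgeR adjusted p = 0.00486). In PND 7/14, Piwil2, Tdrd9 and Mael were higher with log2 fold changes of 2.09, 2.39 and 2.35 (edgeR adjusted p of 0.00355 or less), and without PND 14 mouse 1 these were 1.82, 2.44 and 2.59, all still called.

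Zfp57, a zinc finger protein that guards imprinted methylation, moved both ways. It had 16.4 and 35.9 CPM at PND 7, 5.61 and 3.42 at PND 14, 1.74 and 2.90 at PND 17, 11.2 and 11.0 at PND 21, and 35.3 and 34.2 at PND 28. It was DE lower in PND 7/14 (log2 fold change -2.52, edgeR adjusted p = 0.00228; -2.96 and still called without PND 14 mouse 1) and higher in PND 17/21 (2.35, adjusted p = 0.0118) and in PND 21/28 (1.64, adjusted p = 0.0344). Cxxc5, which encodes a zinc finger protein of the CXXC type that binds unmethylated CpG, was likewise lower in PND 7/14 (-1.67, edgeR adjusted p = 0.00252, and -1.78 and still called without PND 14 mouse 1) and higher in PND 21/28 (2.27, adjusted p = 0.00171).

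Of the 7 genes listed for methyl-CpG binding proteins and their relatives, 4 were lower at PND 28, and the median was -1.42. Among the 4 were Zbtb33 (-1.63), Zbtb4 (-1.46) and Zbtb38 (-1.42), with edgeR adjusted p of 0.00142 or less. Mbd3 of the NuRD complex was higher (1.37, edgeR adjusted p = 0.000608) and was named after its value was seen. Among 10 tested genes of base excision and TET partners, 2 were lower and 2 higher. Ogt, the sugar transferase that binds TET proteins, had 710 and 748 CPM at PND 7 and 91.6 and 90.5 at PND 28 (log2 fold change -3.00, edgeR adjusted p = 1.34e-05). Cxxc4 was lower (-2.79, SE 0.918, edgeR adjusted p = 0.0211), from 11.1 and 2.28 CPM at PND 7, far apart between the mice, to 0.818 and 1.15 at PND 28. Lig3 (2.69, edgeR adjusted p = 1.36e-05) and Xrcc1 (1.40, adjusted p = 0.00162), which seal DNA together after base excision, were higher. Tdg, the glycosylase that removes the oxidized bases, had 3.80 and 0.806 CPM at PND 7 and 1.23 and 0.692 at PND 28, which was not called (edgeR adjusted p = 0.234), and was likewise named after its values were seen.

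Enzymes that supply the methyl donor S-adenosylmethionine were lower in 7 of 9 cases, with a median of -1.52 and none higher. Among those that fell were Mtrr (-2.04), Shmt2 (-1.83) and Mat2b (-1.69), which work in the folate and methionine cycles, with edgeR adjusted p of 0.00676 or less. The homologs Gm14490 and Trdmt1, a methyltransferase of transfer RNA, were not called in any of the 5 comparisons.

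**Figure D4:**
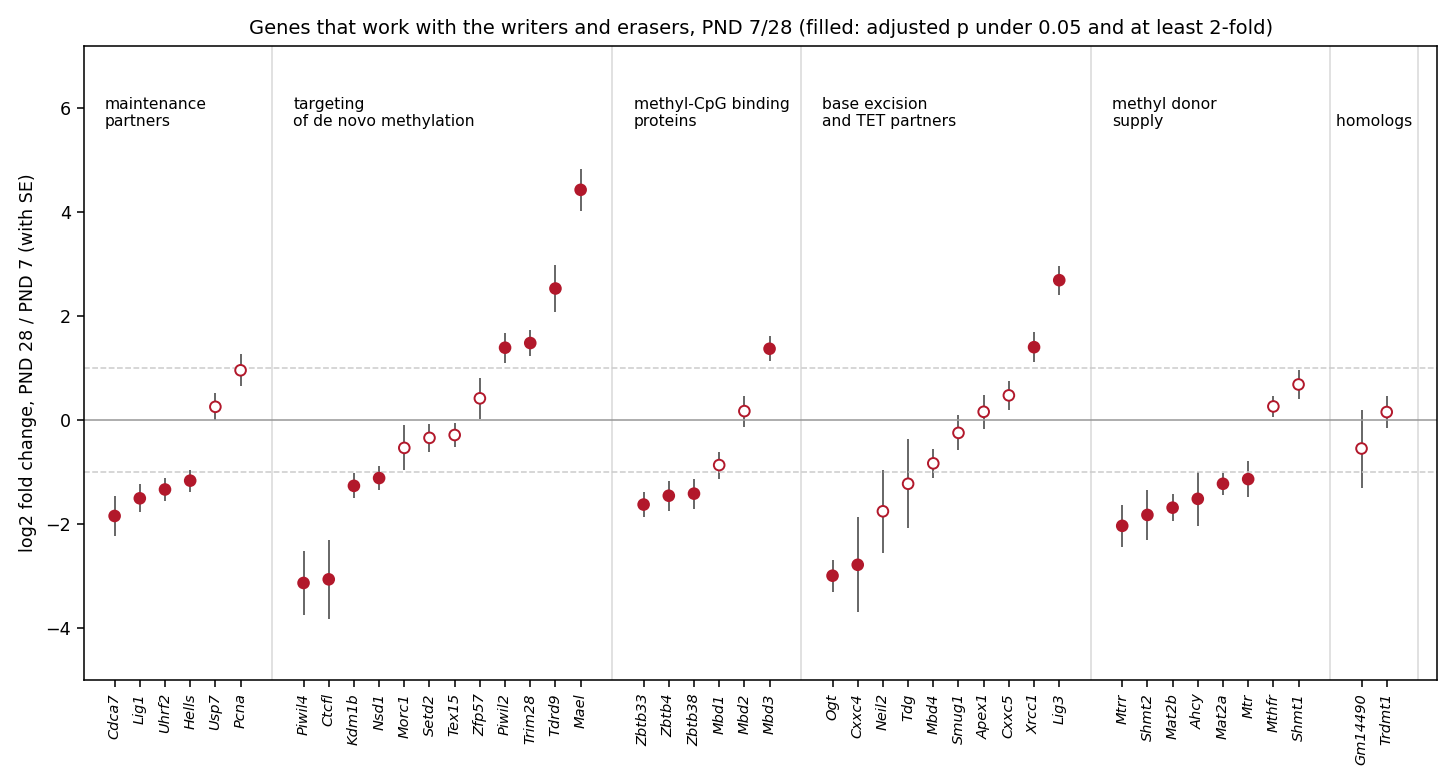
Log2 fold change of PND 28 over PND 7 with the SE for the tested genes of the 6 lists that are reported here, sorted within a list, with filled points for DE genes and dashed lines at 2-fold. In the lists of maintenance partners and of methyl donor supply all filled points lie below 0, and in the list on targeting 4 lie above and 4 below.

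The genes whose pattern over the 10 mice was most like that of each member were taken among 9891 protein-coding genes whose mean reached 10 CPM, by Pearson's r of log2(CPM + 1), which describes mice at 5 ages that share libraries with the member. For Dnmt1 they were Mertk (r = 0.987), 5930434B04Rik (0.978) and Casp9 (0.977), and for Uhrf1 Prdx5 (0.975), Mrpl20 (0.975) and Mettl22 (0.974). Dnmt3a was closest to Pkd2 (0.996), Mbtps1 (0.994) and Smo (0.994), and Dnmt3b to Serinc5 (0.994), Calcoco1 (0.987) and Ccnt2 (0.987). Those of Dnmt3l were 4933432B09Rik (0.989), Sgms1 (0.985) and Tex13a (0.979). Tet1 was closest to Sephs1 (0.991), Nedd4 (0.986) and Kitl (0.985), Tet2 to Mmp11 (0.994), Elf4 (0.989) and Odz4 (0.987), and Tet3 to Dennd2c (0.992), Arid1b (0.989) and Tsr2 (0.989). Between members, r was highest for Tet1 and Tet2 (0.965, n = 10 mice) and lowest for Uhrf1 and Tet3 (-0.930).

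The makeup of the testis changed over the same ages, as the marker lists show. The 8 matched Sertoli markers, such as Sox9 and Amh, summed to 2015 and 1661 CPM at PND 7 and 420 and 581 at PND 28, and 7 of the 8 were DE lower. Clu alone held 1360 and 1154 CPM of these sums at PND 7 and 229 and 370 at PND 28. The 10 spermatogonial markers went from 325 and 285 to 112 and 134 CPM, with 7 DE lower and 1 higher, and the 10 cell division genes from 1001 and 1021 to 558 and 665 CPM, with 5 lower and 2 higher. The 9 spermatocyte markers went from 224 and 218 to 8927 and 8522 CPM, with 8 higher, and the 6 spermatid markers from 2.40 and 6.32 to 5206 and 6159 CPM, all DE higher. Ldhc alone held 6132 and 5529 CPM of the spermatocyte sums at PND 28. Pgk2, Tnp2, Prm1, Prm2 and Acrv1 of these germ cell lists had 0 counts in both PND 7 mice. From PND 7 to PND 28 Dnmt3l went in the direction of the lists that rose, and the 6 genes that fell in that of the lists that fell. The timing differed in part. At PND 14 the spermatocyte list stood at 1853 and 3059 CPM and Dnmt3l at 0.33 and 0.13 CPM. The spermatid list stood at 188 and 13.3 CPM at PND 14, 12.8 and 12.8 at PND 17 and 122 and 111 at PND 21. Dnmt3l had 0.70 and 0 CPM at PND 17 and 0.95 and 2.45 at PND 21. At PND 14 the Sertoli list stood at 1802 and 932 CPM and the spermatogonial list at 288 and 274. The PND 14 mean was 45.6% of that at PND 7 for Tet1, 45.3% for Tet2 and 37.1% for Tet3. It was 60.7% for Dnmt3b, 78.6% for Dnmt3a and 102% for Dnmt1. The part of cell makeup in the values of these genes was not tested.

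Of the other somatic lists, 4 of 6 Leydig markers were DE higher at PND 28 (171 and 188 CPM summed at PND 7, 1073 and 789 at PND 28). Of the endothelial markers 3 of 4 were lower (89.0 and 111 to 25.8 and 37.6 CPM), of the peritubular myoid markers 2 of 4 (348 and 425 to 120.1 and 164 CPM), and of the 5 macrophage markers none was called. Of the 2 red blood cell markers tested 1 was higher and 1 lower, and the 3 listed summed to 32.6 and 102 CPM at PND 7 and 35.3 and 35.5 at PND 28.

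**Figure D5:**
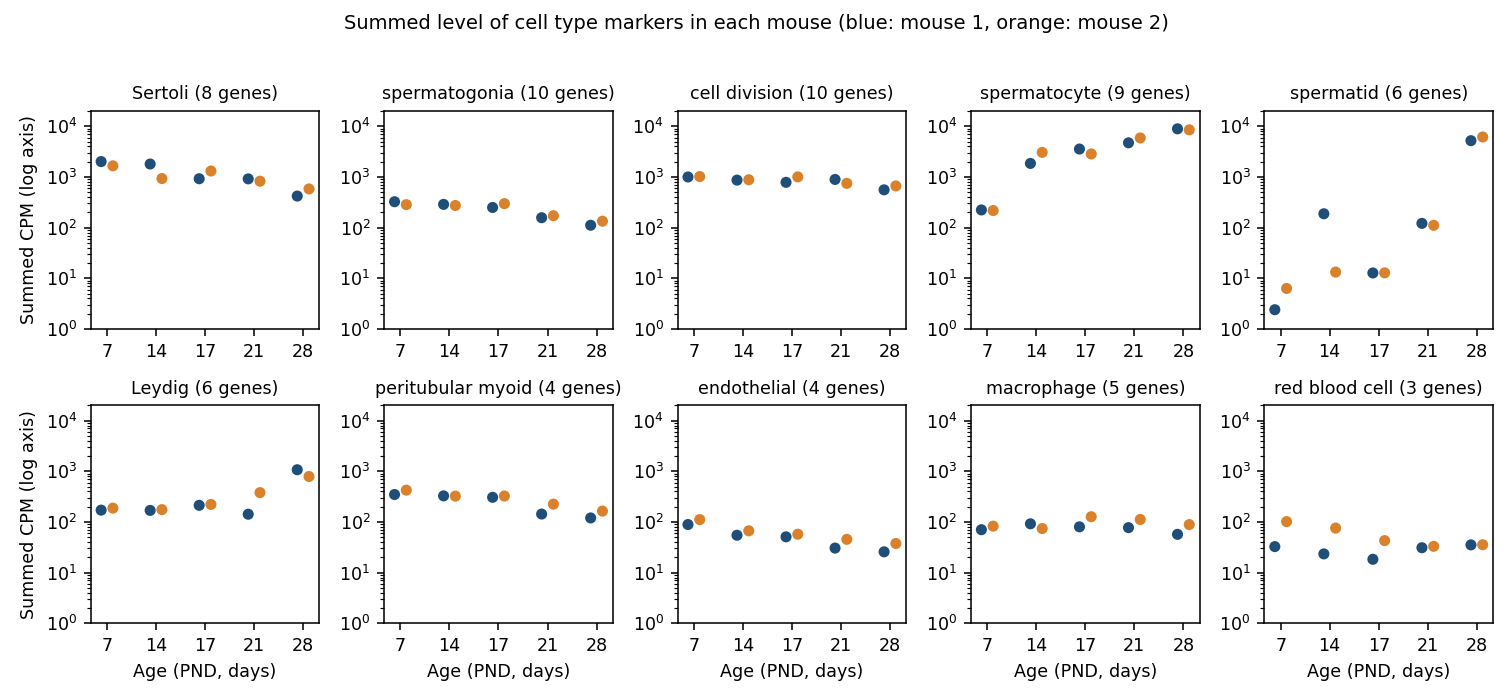
Summed TMM scaled CPM of each list of cell type markers on a log axis, 1 point per mouse by age in days, blue for mouse 1 and orange for mouse 2. The spermatid list stood at 188 CPM in PND 14 mouse 1, beside 13.3 in mouse 2, and reached 5206 and 6159 CPM at PND 28, while the Sertoli list declined from 2015 and 1661 to 420 and 581 CPM.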

How the data were processed

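RNA of whole testes was measured in 10 mice. The authors aligned the color space reads to mm9 with LifeScope, dropped ribosomal, transfer RNA and repeat reads and those with many alignments, and assigned unique reads to Ensembl genes, and the deposited count is the number on a gene's exons. The deposited RPKM divides that count by exon length and by the counted reads of the library. The deposited files also give the number of exons with more than 10 reads. Whether strand was used in counting is not given in the sources used here.

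Both barcodes of each PND 7 mouse were summed (counts) or averaged (RPKM). Counts were tested with edgeR 4.0.16 (R 4.3.3) after TMM and filterByExpr, with 5 ages in 1 fit of all 10 mice (common dispersion 0.0726), and p-values were adjusted with Benjamini-Hochberg over the 16860 genes tested. The labels do not say whether the mice were littermates, and p-values measure the spread between these mice. Alternatives were RLE or library totals, other filters, DESeq2 1.42.0, limma 3.58.1 on log2(RPKM + 1) or log2(RPKM + 0.1), the study's criteria (p of at most 0.01, 2-fold, 10 RPKM), a replicate block and leaving out mice. The ratios, and the alternatives for them and for the pathway counts, were added after the data had been seen. Intervals of count ratios are exact binomial intervals at 95%. Scripts were tested on simulated data. Python 3.11.15, pandas 2.3.3, scipy 1.17.1 and matplotlib 3.10.9 were used.

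The members and lists were chosen with earlier results of these data known. Named genes are all 8 members, for each member the 3 protein-coding genes with the highest correlation, and up to 4 DE genes per pathway list and comparison by size of the log2 fold change, of which some are not reported here. Of 66 marker genes 65 were matched. Coordinates of genes are mm9 and equal those of the annotation used, and promoter sequences are from RefSeq on GRCm38.p6.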

Additional observations from a re-analysis of the deposited data

How the results depend on the processing

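The 7 genes called in PND 7/28 and among the 5 ages stayed 7 to 8 and 6 to 8 when each mouse was left out, and of the alternatives only the study's criteria, which ask for a difference of 10 RPKM, lowered both counts to 2 (Dnmt1 and Tet3). In PND 7/14 the 3 calls became 1 with library totals, 0 with limma on log2(RPKM + 1), 0 with limma on log2(RPKM + 0.1) and 0 under the study's criteria, and 0 to 3 when a mouse was left out. In PND 21/28 the 0 calls of edgeR became 1 with library totals (Dnmt1), 1 without a filter (Tet3), 1 with DESeq2 (Tet3), 1 with limma on log2(RPKM + 1) (Dnmt3l), 2 without small structural RNA and mitochondrial genes and 3 with only the 4 mice, and 0 to 2 when a mouse was left out. PND 14/17 and PND 17/21 stayed at 0 of the 8 under every alternative run. Members were recounted in PND 7/28 and in comparisons where they had an unadjusted p under 0.05, which leaves out most small fold changes. Of these 399 recomputed fold changes between 2 ages 0 changed sign. With 160 recomputed ranges over all ages, which have no sign, 505 stayed on their side of the threshold, 33 lost the call and 21 gained it. The cause was not tested. Library totals in place of TMM moved the members by a median of -0.32 on the log2 scale in PND 7/28, and RLE by 0.17. Of the pathway genes, 7 were lower and 4 higher in PND 7/28 under the study's criteria, and 5 were lower in PND 7/14 without PND 14 mouse 1, an alternative added after seeing the data. Mouse numbers share no stated origin, and deviations of same-numbered mice correlated with r of -0.253 to 0.398 between ages. With the mouse number as a replicate block the calls were 3, 0, 0, 0 and 7 in the 5 comparisons and 7 among the ages, as without the block. Depth limits Dnmt3l, where 3 counts are 0.209 to 0.726 CPM in a mouse. With 2 mice per age, outliers within an age were not tested for.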
